A study of Mus musculus with 12 samples.

Results

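TRBV29 is a mouse variable (V) gene segment of the T cell receptor beta chain (TRB). It lies on chromosome 6 at chr6:41271394-41271881 of the GRCm38 assembly, on the plus strand, with a first exon at 41271394 to 41271451 and a second exon at 41271587 to 41271881. A cell was counted as a TRBV29 cell when the TRB contig with the most unique molecular identifiers (UMIs, tags that mark single captured RNA molecules) had TRBV29 as its V segment. By this rule 4454 of the 76281 cells with a TRB contig were TRBV29 cells, and 100540 cells were in the deposited cell table. Cells with the same V segment, joining (J) segment and CDR3 nucleotides were counted as one TRB clonotype. TRBV29 made up 3029 of the 51514 TRB clonotypes of the series.

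A beta chain gene is assembled in each developing T cell from a V, a D and a J segment, and its alpha chain gene (TRA) from a V and a J segment. The germline V segment encodes most of the variable domain, including the first residues of CDR3. The rest of CDR3, the loop that lies over the bound peptide, is made where the segments are trimmed and joined with added bases. A CDR3 nucleotide sequence is therefore used as a tag of one rearrangement and of the cells descended from it, while the V segment is shared by many unrelated cells. The tag is not strict, since a few clonotypes were found in mice of both treatments.

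The cells were CD8+ T cells sorted from spleens of wild-type C57BL/6 mice and sequenced with a droplet 5′ method that also reads the receptor chains. One group of mice received an antibody to CD137 (clone 3H3, 10 µg), a costimulatory receptor of activated T cells also called 4-1BB. The control group received immunoglobulin (Ig, clone HRPN, 100 µg). Both were injected 2 times a week for 14 days, and spleens of 5 anti-CD137 mice and of 10 Ig control mice were pooled. From each pool 3 subsets were sorted: Teff (CD44hi PD1-), Tpex (CD44hi PD1+ Slamf6+ Tim3-) and Tex (CD44hi PD1+ Slamf6- Tim3+). The names stand for effector, precursor exhausted and exhausted T cells, and expression of these sorting markers was not analysed here.

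Each treatment and subset had 1 library, so a difference between treatments and a difference between 2 libraries cannot be told apart, and no test between treatments was possible. Intervals below are 95% intervals of counting error alone. They treat cells as independent, which cells of one clonotype are not, and they are not adjusted for the number of comparisons. Libraries held 9897 to 28028 cells and 31252414 to 126261864 RNA UMIs. The anti-CD137 Tpex library stood apart from the rest: a TRB contig was found for 45.3% of its cells, against 87.5% of Ig control Tpex cells, and 66.6% of its barcodes with a TRB contig were not in the cell table, against 14.0%. Its cells had a median of 1950 RNA UMIs, against 4729 in Ig control Tpex. Every Tpex comparison rests on this library. The anti-CD137 Tex library lay on the same side to a lesser degree, with a TRB contig in 59.0% of cells, against 80.7% in Ig control Tex, 33.6% of TRB barcodes outside the cell table, against 3.12%, and a median of 3473 RNA UMIs, against 5619. The part of these gaps in the Tpex and Tex results was not tested. Across libraries 5336 of 95046 cell barcodes occurred more than once, and of 4745 shared TRB barcodes 2 carried the same TRB.

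The germline TRBV29 segment ends in 17 bases that lie inside CDR3, at chr6:41271865-41271881 of GRCm38. They make 5 codons and 2 bases of the next one, and they are shown because the results on CDR3 turn on how much of this stretch was kept.
germline TRBV29 end: tgtgctagcagtttatc
The 7 clonotypes that follow had the most cells in the series among the TRBV29 clonotypes picked for naming. Those picked were among the 3 largest of a library or were found in all 3 subsets of a treatment. The 7 are shown so that clones described further on can be told by sequence. Lower case marks bases that match the germline V or J segment, and capitals mark the bases between those matches, which hold D and added bases.
clone 1: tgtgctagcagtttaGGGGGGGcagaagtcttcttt
clone 2: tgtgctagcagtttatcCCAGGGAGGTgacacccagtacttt
clone 3: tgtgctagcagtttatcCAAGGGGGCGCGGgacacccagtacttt
clone 4: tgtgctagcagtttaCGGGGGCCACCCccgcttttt
clone 5: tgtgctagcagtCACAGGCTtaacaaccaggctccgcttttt
clone 6: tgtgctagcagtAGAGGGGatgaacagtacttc
clone 7: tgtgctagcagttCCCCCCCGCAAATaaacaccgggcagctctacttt

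Because TRBV29 was chosen by its V segment and for its level across these libraries, its shares are given as a description. Among cells with a TRB contig, TRBV29 made up 11.3% in anti-CD137 Tpex (677 of 5980 cells, interval 10.5 to 12.2%), against 5.11% in Ig control Tpex (575 of 11258, 4.71 to 5.53%). In Tex it made up 7.54% of anti-CD137 cells (440 of 5837, 6.87 to 8.25%), against 2.96% of Ig control cells (254 of 8575, 2.61 to 3.34%). The Teff libraries had 5.80% in anti-CD137 (1395 of 24035, 5.51 to 6.11%), against 5.40% in Ig control (1113 of 20596, 5.10 to 5.72%). The Teff libraries differed by 0.400 percentage points, with an interval that included 0 (-0.0315 to 0.830). In the PD1+ subsets TRBV29 was higher after anti-CD137, by ratios of 2.22 in Tpex and 2.54 in Tex. In order of share, anti-CD137 Tpex was followed by anti-CD137 Tex, then by anti-CD137 Teff, Ig control Teff and Ig control Tpex, whose neighbouring intervals overlapped, and Ig control Tex was lowest.

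Counting each clonotype once made the differences smaller. TRBV29 was 9.43% of clonotypes in anti-CD137 Tpex (292 of 3095, 8.43 to 10.5%), against 6.12% in Ig control Tpex (347 of 5666, 5.51 to 6.78%), a difference of 3.31 percentage points (2.11 to 4.55). In Tex it was 8.14% of anti-CD137 clonotypes (107 of 1315, 6.72 to 9.75%), against 5.40% of Ig control clonotypes (60 of 1112, 4.14 to 6.89%), a difference of 2.74 points (0.678 to 4.78). In Teff it was 5.68% of anti-CD137 clonotypes (1295 of 22811), against 5.45% of Ig control clonotypes (1056 of 19389). By clonotypes the ratios were 1.54 in Tpex and 1.51 in Tex, and every neighbour in the order of the 6 libraries had overlapping intervals.

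**Figure D1:**
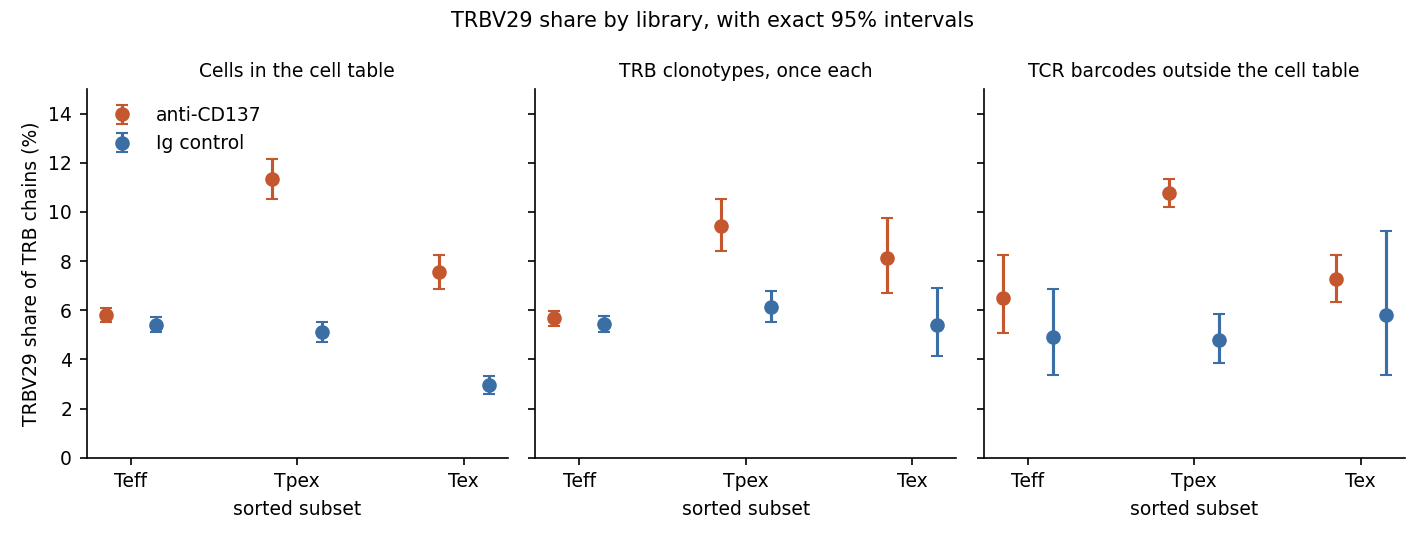
TRBV29 share of TRB chains (percent) in each subset, among cells of the cell table, among TRB clonotypes counted once each and among TCR barcodes outside the cell table, with anti-CD137 left of Ig control. Points are single libraries and bars exact 95% intervals of counting error, and anti-CD137 Tpex is highest in each panel, at 11.3% of cells, 9.43% of clonotypes and 10.8% of barcodes outside the table.

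TRBV29 was the most frequent of 22 V segments in anti-CD137 Tpex, by cells and by clonotypes. In Ig control Tpex it was 10th by cells and 8th by clonotypes. In anti-CD137 Tex it was 5th by cells and 3rd by clonotypes, in Ig control Tex 11th and 10th, and in both Teff libraries 10th on both scales. Other segments differed between treatments by similar folds, so the ratio alone does not set TRBV29 apart. Of 19 segments compared in Tpex cells, 21.1% were at least 1.5-fold higher after anti-CD137, and of 20 segments in Tex cells, 45%. By clonotypes the shares of segments past this fold were 15% in Tpex, where they were TRBV13-2, TRBV15 and TRBV29, and 10% in Tex, where they were TRBV10 and TRBV29. As TRBV29 was chosen on this contrast, nothing is read from its place among them. Over the 6 libraries, the clonotype shares of TRBV10, TRBV13-1 and TRBV31 had the patterns nearest to that of TRBV29, at distances of 0.558, 0.667 and 0.689. The distance was Euclidean, on log2 shares relative to each segment's own mean, and its median over the 19 segments compared was 0.877.

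Counting second contigs gives a wider description of the same cells, since it keeps every cell of the rule. When cells with TRBV29 as a second TRB contig were added, TRBV29 was found in 13.4% of anti-CD137 Tpex cells, against 5.49% of Ig control Tpex cells. The same count gave 7.73% in anti-CD137 Tex, against 3.01% in Ig control Tex, and 6.72% in anti-CD137 Teff, against 6.35% in Ig control Teff. Of cells of any V segment with a TRB, 17.8% had more than 1 TRB contig in anti-CD137 Tpex, against 6.41% in Ig control Tpex. This count therefore takes in more second contigs in anti-CD137 Tpex, whatever the V segment. TRBV29 cells whose top contig was tied with a second TRB contig in UMIs numbered 10 in anti-CD137 Tpex and 1 in Ig control Tpex. In barcodes with a TRB contig that were not in the cell table, and that the rule did not use, TRBV29 was the top chain in 10.8% of anti-CD137 Tpex barcodes (1285 of 11950, 10.2 to 11.3%), against 4.79% of Ig control Tpex barcodes (88 of 1838, 3.86 to 5.87%). The corresponding shares were 7.26% in anti-CD137 Tex, against 5.80% in Ig control Tex. In Tpex the barcodes outside the table thus had TRBV29 shares close to those of cells inside it. They come from the same libraries and can carry the same clonotypes, so this closeness is not independent support.

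The number of TRB UMIs per cell differed between treatments in the PD1+ subsets. TRBV29 cells had a median of 6 TRB UMIs in anti-CD137 Tpex and 17 in Ig control Tpex, where cells of other TRBV segments had 6 and 14. In Tex the medians of TRBV29 cells were 9 in anti-CD137 and 22 in Ig control, against 12 and 17 for other TRBV cells. Among cells with 21 or more TRB UMIs, TRBV29 was 8.54% in anti-CD137 Tpex, against 6.66% in Ig control Tpex, while among cells with 3 to 5 it was 12.3%, against 2.77%. In Tex cells with 21 or more TRB UMIs it was 4.86% in anti-CD137, against 4.10% in Ig control, while with 3 to 5 it was 12.8%, against 1.08%. The difference between treatments was thus smallest among cells with the most TRB UMIs, and the part of chain recovery in it was not tested.

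CDR3 length was not used to choose TRBV29 cells, and it set anti-CD137 Tpex apart from the other 5 libraries. Lengths are in codons and include the conserved first and last residue. In 5 libraries TRBV29 clonotypes were shorter on average than clonotypes of other TRBV segments. The mean was 13.6 ± 1.41 codons for TRBV29 in anti-CD137 Teff, against 14.0 ± 1.44 for other TRBV (SD over 1295 and 21516 clonotypes), and the difference was -0.37 codons in both Teff libraries. It was -0.491 in Ig control Tpex, -0.594 in anti-CD137 Tex and -0.605 in Ig control Tex. In anti-CD137 Tpex the mean was 14.1 ± 1.54 codons for TRBV29, against 14.0 ± 1.49 for other TRBV, a difference of 0.163 codons (-0.022 to 0.348). TRBV29 ranked 2nd or 3rd from the shortest among 19 or 20 V segments in those 5 libraries and 16th of 20 in anti-CD137 Tpex. Comparing clonotypes with the same J segment left the pattern in place, with a difference of 0.164 codons in anti-CD137 Tpex and -0.441 in Ig control Tpex.

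**Figure D2:**
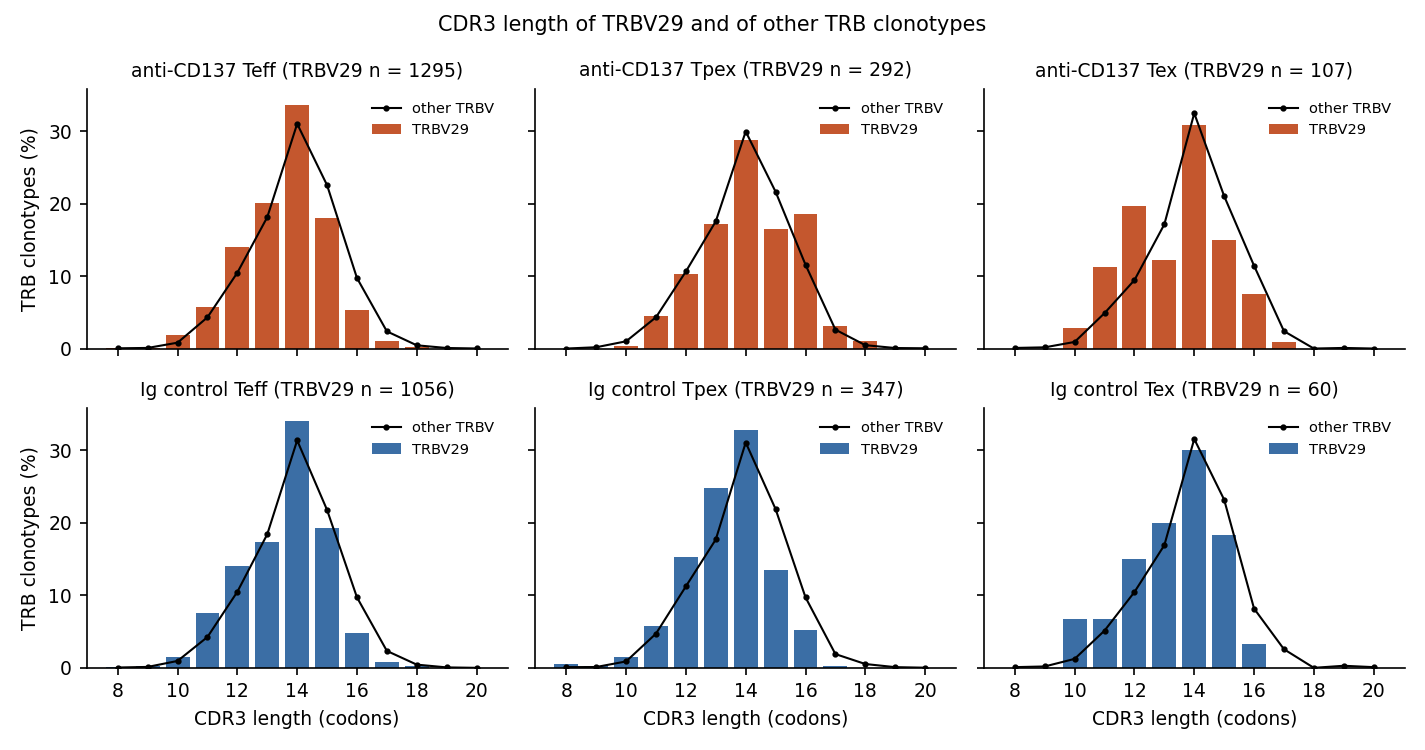
Percent of TRBV29 clonotypes (bars) and of clonotypes of other TRBV segments (line) at each CDR3 length in codons, with the anti-CD137 libraries in the upper row and the Ig control libraries in the lower one. In anti-CD137 Tpex 18.5% of TRBV29 clonotypes have exactly 16 codons, against 5.19% in Ig control Tpex.

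The length difference between the Tpex libraries was seen at both ends. TRBV29 clonotypes of 12 or fewer codons were 15.1% in anti-CD137 Tpex, against 23.3% in Ig control Tpex, with intervals that overlapped. Those of exactly 13 codons were 17.1% in anti-CD137 Tpex, against 24.8% in Ig control Tpex. CDR3s of 16 or more codons were found in 22.6% of TRBV29 clonotypes in anti-CD137 Tpex (66 of 292, 17.9 to 27.8%), against 5.48% in Ig control Tpex (19 of 347, 3.33 to 8.42%). In Tex they were found in 8.41% of anti-CD137 clonotypes (9 of 107), against 3.33% of Ig control clonotypes (2 of 60). The Teff libraries had 6.49% in anti-CD137, against 5.87% in Ig control. Long CDR3s of TRBV29 were therefore several times as frequent in anti-CD137 Tpex as in the libraries of Ig control Tpex and of both Teff subsets, and the length of 16 codons was picked after the lengths had been seen. Clonotypes of other TRBV segments had such lengths in 14.7% of anti-CD137 Tpex and 12.3% of Ig control Tpex. Thus TRBV29 was below the pool of other TRBV clonotypes in 5 libraries and above it in anti-CD137 Tpex. Intervals of TRBV29 and of the pool overlapped in both Tex libraries. Single segments did not all follow the pool. In anti-CD137 Tpex TRBV1 (25.4%), TRBV2 (26%) and TRBV5 (27.3%) were above TRBV29, and the other segments compared were below it. In both Teff libraries TRBV20 was below TRBV29 (3.99% in anti-CD137 and 3.04% in Ig control), and the other segments compared were above it. By cells the TRBV29 share with 16 or more codons was 31.5% in anti-CD137 Tpex (213 of 677), against 6.09% in Ig control Tpex (35 of 575).

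Among 20 V segments compared on this measure in Tpex, 35% had a share of long CDR3s at least 1.5-fold higher after anti-CD137. The ratio of TRBV29 was 4.13 and ranked 1st of 20, and TRBV29 was the one segment whose 2 intervals did not overlap. The other 19 ratios ran between 0.429 and 3.08 with a median of 1.33. TRBV13-2, the segment with the next ratio, had long CDR3s in 20.5% of anti-CD137 Tpex clonotypes, against 6.67% of Ig control Tpex clonotypes. The cut at 16 codons was picked after the lengths of TRBV29 had been seen, which favours TRBV29, so its rank is a description. Segments were not ranked at another cut, and the TRBV29 difference in Tpex was 17.1 points at this cut and 3.82 at 17 or more codons.

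**Figure D3:**
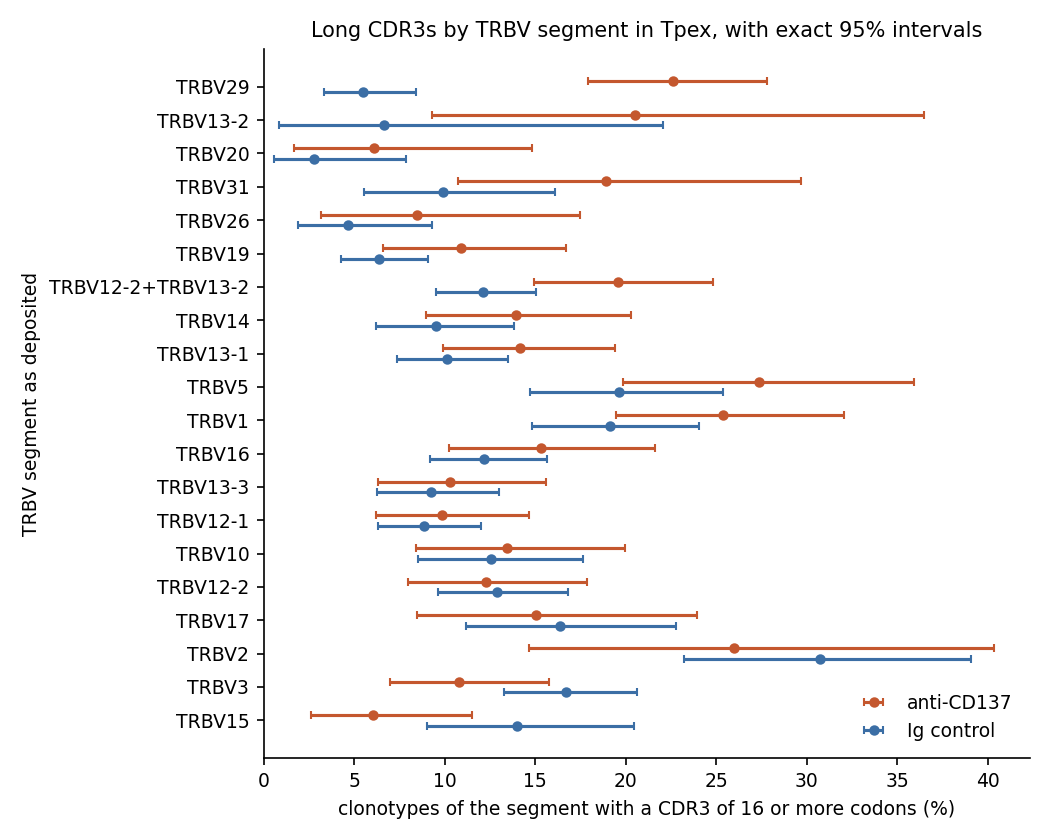
Share of clonotypes with a CDR3 of 16 or more codons (percent) in the Tpex libraries for each of 20 V segments as named in the deposited tables, ordered by ratio, with anti-CD137 above Ig control and exact 95% intervals. TRBV29 has 22.6% in anti-CD137 and 5.48% in Ig control, the one pair of intervals that does not overlap, at a cut picked after its lengths had been seen.

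The long TRBV29 chains did not come from a few large clones. Among clonotypes seen in a single cell, 19.6% were long in anti-CD137 Tpex, against 4% in Ig control Tpex. Among clonotypes with at least 10 TRB UMIs the shares were 26.6% in anti-CD137 and 5.57% in Ig control, and among those with a TRA partner 24.0% and 5.94%. In barcodes left out of the cell table, among chains not found in the table, 14.8% were long in anti-CD137 Tpex (39 of 264), against 5.26% in Ig control Tpex (2 of 38). Of the TRBV29 clonotypes of anti-CD137 Tpex also found in Teff or Tex of the same mice, 19% were long (11 of 58), against 5.13% in Ig control (2 of 39). The direction was thus the same in each of these 5 subdivisions, some of which hold few clonotypes. Those taken from the cell table are overlapping parts of the clonotypes compared above, so their agreement is not independent support. Among clonotypes also found in Teff or Tex the intervals overlapped (9.87 to 31.4% in anti-CD137, against 0.627 to 17.3% in Ig control).

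Anti-CD137 Tpex TRBV29 clonotypes also kept more of the germline V end. All 17 bases were intact in 22.9% of them (67 of 292, 18.2 to 28.2%), against 7.20% in Ig control Tpex (25 of 347, 4.72 to 10.5%). The share was 17.8% in anti-CD137 Tex (19 of 107), against 11.7% in Ig control Tex (7 of 60), and 9.96% in anti-CD137 Teff, against 10.3% in Ig control Teff. Within anti-CD137 Tpex the whole end was present in 48.5% of long clonotypes (32 of 66) and in 15.5% of shorter ones (35 of 226). In the other 5 libraries long clonotypes kept it in 0 to 24.2%. In Teff the shares were 23.8% in anti-CD137 (20 of 84, 15.2 to 34.3%), against 24.2% in Ig control (15 of 62, 14.2 to 36.7%). The long chains of anti-CD137 Tpex thus kept the whole V end more often than those of the Teff libraries. Long clonotypes were few in Ig control Tpex (19), anti-CD137 Tex (9) and Ig control Tex (2), so no difference is read from these libraries. A kept V end adds length by itself, and the median number of bases between the V and J matches was 11 in anti-CD137 Tpex, against 9 in Ig control Tpex. For other TRBV segments it was 10 in both.

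The largest long clonotypes of anti-CD137 Tpex that kept the whole V end are shown with the same use of capitals, so that the intact end can be compared with the varied bases after it.
long 1: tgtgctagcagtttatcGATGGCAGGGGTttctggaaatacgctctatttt
long 2: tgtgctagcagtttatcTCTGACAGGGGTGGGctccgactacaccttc
long 3: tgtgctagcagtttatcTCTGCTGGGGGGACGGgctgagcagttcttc
long 4: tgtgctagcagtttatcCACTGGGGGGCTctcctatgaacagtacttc
long 5: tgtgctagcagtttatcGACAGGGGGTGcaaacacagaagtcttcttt
long 6: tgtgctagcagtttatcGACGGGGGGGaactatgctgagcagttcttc
Long 1 used TRBJ1-3 and was found in 8 Tpex cells. Long 2 used TRBJ1-2 and was found in 8 Tpex cells and 1 Tex cell, and its 7 cells with a TRA carried 5 different TRA chains. Long 3 used TRBJ2-1 and was found in 8 Tpex and 2 Tex cells. Long 4 (TRBJ2-7) had 5 cells, and long 5 (TRBJ1-1) and long 6 (TRBJ2-1) had 4 each. These chains shared the V end and differed in J segment and in the bases between. Of the 66 long clonotypes, which used 11 J segments, 0 were 1 base apart from another of the same length, against 4 of the 226 shorter ones.

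Long TRBV29 clonotypes were larger than shorter ones in anti-CD137 Tpex. Their mean size was 3.23 cells, against 2.05 for shorter ones, with medians of 2 and 1 and maxima of 34 and 19 cells. A cell was called expanded when its clonotype had at least 2 cells in its library. Expanded cells were 85.0% of long TRBV29 cells (79.5 to 89.5%), against 71.8% of shorter ones (67.4 to 75.8%). Cells of long clonotypes lay in cluster 1 of the deposited clustering in 89.7% and in cluster 5 in 7.04%, against 81.0% and 16.6% of cells of shorter ones. Of the long clonotypes 10.6% were also in Tex (7 clonotypes), against 19% of the shorter ones (43), and 9.09% against 3.98% were also in Teff. In the Ig control libraries 0 of the long and 2 of the shorter clonotypes were found. Among 99 pairings of long clonotypes the most frequent TRAV families were TRAV6 (24.2%, 16.2 to 33.9%), TRAV12 (23.2%, 15.3 to 32.8%) and TRAV7 (11.1%, 5.68 to 19%). Among 258 pairings of shorter ones TRAV6 and TRAV7 had 15.5% each (11.3 to 20.5%) and TRAV12 14.0% (9.97 to 18.8%), so each pair of intervals overlapped.

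Long CDR3s accounted for a part of the higher TRBV29 share in Tpex. Long TRBV29 clonotypes were 2.13% of all TRB clonotypes in anti-CD137 Tpex, against 0.335% in Ig control Tpex, a difference of 1.80 points (1.28 to 2.39). TRBV29 clonotypes of fewer than 16 codons were 7.30% in anti-CD137 Tpex (226), against 5.79% in Ig control Tpex (328), a difference of 1.51 points (0.415 to 2.65). In Tex the difference lay mostly in the shorter ones, with 7.45% in anti-CD137, against 5.22% in Ig control (2.24 points, 0.230 to 4.22), while long ones were 0.684% and 0.180%. Of the anti-CD137 Tpex clonotypes of any V segment that were also in Teff or Tex of the same mice, TRBV29 made up 10.8% (58 of 536, 8.32 to 13.8%), against 5.74% in Ig control (39 of 680, 4.11 to 7.76%).

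The short end differed from other V segments as well. CDR3s of 12 or fewer codons were found in 33.6% of TRBV29 clonotypes in anti-CD137 Tex, against 15.5% of other TRBV clonotypes, and in 28.3% in Ig control Tex, against 17.2%. In Teff the shares were 21.9% for TRBV29 in anti-CD137, against 15.7% for other TRBV, and 23.5% in Ig control, against 15.9%. In Ig control Tpex they were 23.3% and 17.1%, and in anti-CD137 Tpex 15.1% for TRBV29 and 16.2% for other TRBV. Short CDR3s were thus more frequent with TRBV29 than with other segments in 5 libraries, anti-CD137 Tpex being the exception.

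J segment partners of TRBV29 leaned to the TRBJ1 group. TRBJ1 segments were used by 36.4% of TRBV29 clonotypes in anti-CD137 Teff, against 31.2% of other TRBV clonotypes, and by 38.5% in Ig control Teff, against 30.7%. In Tpex the shares were 34.9% for TRBV29 in anti-CD137, against 31.0% for other TRBV, and 40.9% in Ig control, against 32.2%. In Tex they were 31.8% against 29.2% in anti-CD137 and 41.7% against 32.9% in Ig control. TRBJ1 use was higher with TRBV29 in all 6 libraries, with intervals apart in both Teff libraries and in Ig control Tpex. Among 72 comparisons of single J segments at 2% or more, 9.72% had intervals apart. TRBJ2-3 was lower with TRBV29 in 3 of them, at 6.49% against 8.50% for other TRBV in anti-CD137 Teff, 6.25% against 8.66% in Ig control Teff, and 0.935% (1 of 107 clonotypes) against 7.62% in anti-CD137 Tex. The other 4 were in Ig control Teff, where TRBJ1-1 (13.4% against 10.0%) and TRBJ1-4 (7.95% against 5.74%) were higher and TRBJ2-4 (6.16% against 8.42%) and TRBJ2-7 (17.7% against 21.6%) were lower.

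The alpha chain partner most often in excess was the TRAV6 family. It was paired with 25.2% of TRBV29 clonotypes in anti-CD137 Tex, against 11.2% of other TRBV clonotypes, a ratio of 2.25. In Ig control Tpex it was 17.9% for TRBV29, against 11.9%, and in Teff 17.8% against 11.5% in anti-CD137 and 15.6% against 11.6% in Ig control. Intervals overlapped in anti-CD137 Tpex (17.9% against 14.2%) and in Ig control Tex (13.1% against 11.4%). TRAV6 was thus higher with TRBV29 in each library, with intervals apart in 4 of 6. Among 74 comparisons of TRAV families 17.6% had intervals apart. TRAV14 was lower with TRBV29 in 3 of these, at 6.55% against 9.88% in anti-CD137 Teff, 6.89% against 9.91% in Ig control Teff and 5.78% against 9.95% in Ig control Tpex. In Ig control Tex it was 16.4% for TRBV29, against 8.65%, with intervals that overlapped. TRAV13 was lower in both Teff libraries, at 6.64% against 11% in anti-CD137 and 7.55% against 10.4% in Ig control.

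**Figure D4:**
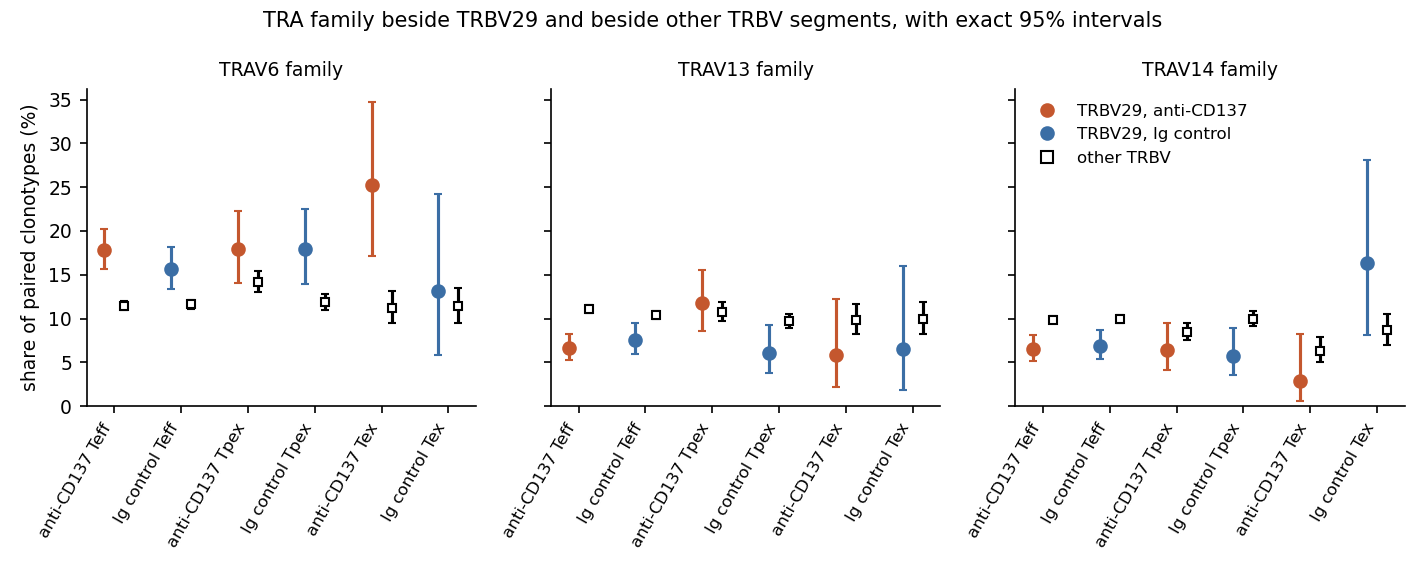
Share of paired clonotypes (percent) with a TRA of the TRAV6, TRAV13 or TRAV14 family in each library, for TRBV29 (filled points) and other TRBV segments (open squares), with exact 95% intervals. TRAV6 is higher with TRBV29 in each library, up to 25.2% in anti-CD137 Tex, and TRAV13 and TRAV14 are lower in both Teff libraries.

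The remaining TRAV families with intervals apart appeared once each. TRAV10 was higher with TRBV29 in anti-CD137 Teff (4.46% against 2.81% for other TRBV). In Ig control Teff TRAV7 was higher (14.2% against 11.5%) and TRAV8 lower (2.84% against 4.60%). TRAV21 was higher in Ig control Tex, at 6.56% (4 of 61) against 0.847%. Among 150 comparisons of TRAJ segments 2% had intervals apart, and each was in a single library: TRAJ45 was lower in anti-CD137 Teff (1.27% against 2.59%), TRAJ26 higher in Ig control Teff (7% against 4.97%) and TRAJ7 higher in anti-CD137 Tpex (4.48% against 1.94%). TRAJ26 was above other TRBV in every library, with 8.12% against 6.45% in anti-CD137 Tpex and overlapping intervals outside Ig control Teff.

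The largest TRBV29 clonotypes weighed on the Tex libraries. Clone 1 used TRBJ1-1, had 12 codons and was found in 134 anti-CD137 Tex cells, 30.5% of all TRBV29 cells there, and in 6 anti-CD137 Tpex cells. Of its cells with a TRA, 133 of 133 carried TRAV6N-7 with TRAJ26, and 117 of its 134 Tex cells lay in cluster 4. Without it TRBV29 was 5.37% of anti-CD137 Tex cells (4.79 to 5.98%), and without clone 2 it was 2.45% of Ig control Tex cells. Clone 1 cells had a median of 6 TRB UMIs and the other TRBV29 cells of that library 11. Clone 2 (TRBJ2-5) was found in 45 Tex and 10 Tpex cells of Ig control, with TRAV9-2 and TRAJ37 in 42 of 44 cells with a TRA. Clone 4 (TRBJ1-5) was found in 41 Tex and 9 Tpex cells of Ig control, with TRAV16 and TRAJ50 in 39 of 40. Both Tex libraries thus held TRBV29 clones of 41 or more cells that were also found in Tpex.

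Other large clones differed in where they lay. Clone 3 (TRBJ2-5) was spread over 10 Teff, 19 Tpex and 24 Tex cells of anti-CD137, with TRAV9N-3 and TRAJ12 in 24 of 25 cells with a TRA, and 9 of its 10 Teff cells were in cluster 6. Clone 6 (TRBJ2-7) was spread in the same way over 10 Teff, 17 Tpex and 8 Tex cells, with TRAV10 and TRAJ40 in 19 of 24, and 8 of its Teff cells were in cluster 6. Clone 5 (TRBJ1-5) was mostly Tpex in Ig control, with 42 Tpex and 6 Tex cells and TRAV14N-2 with TRAJ7 in 41 of 41. Clone 7 (TRBJ2-2, 16 codons) had 34 cells, all in anti-CD137 Tpex, and carried TRAV12-2 with TRAJ5 in 15 of 16. Of TRBV29 clonotypes of anti-CD137 mice, 7 of 1626 were found in all 3 subsets (0.431%, 0.173 to 0.885%), against 63 of 24948 other TRBV clonotypes (0.253%). In Ig control mice the counts were 1 of 1420 for TRBV29 (0.0704%, up to 0.392%) and 33 of 24010 for other TRBV (0.137%), and TRBV29 and other TRBV intervals overlapped in both treatments.

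**Figure D5:**
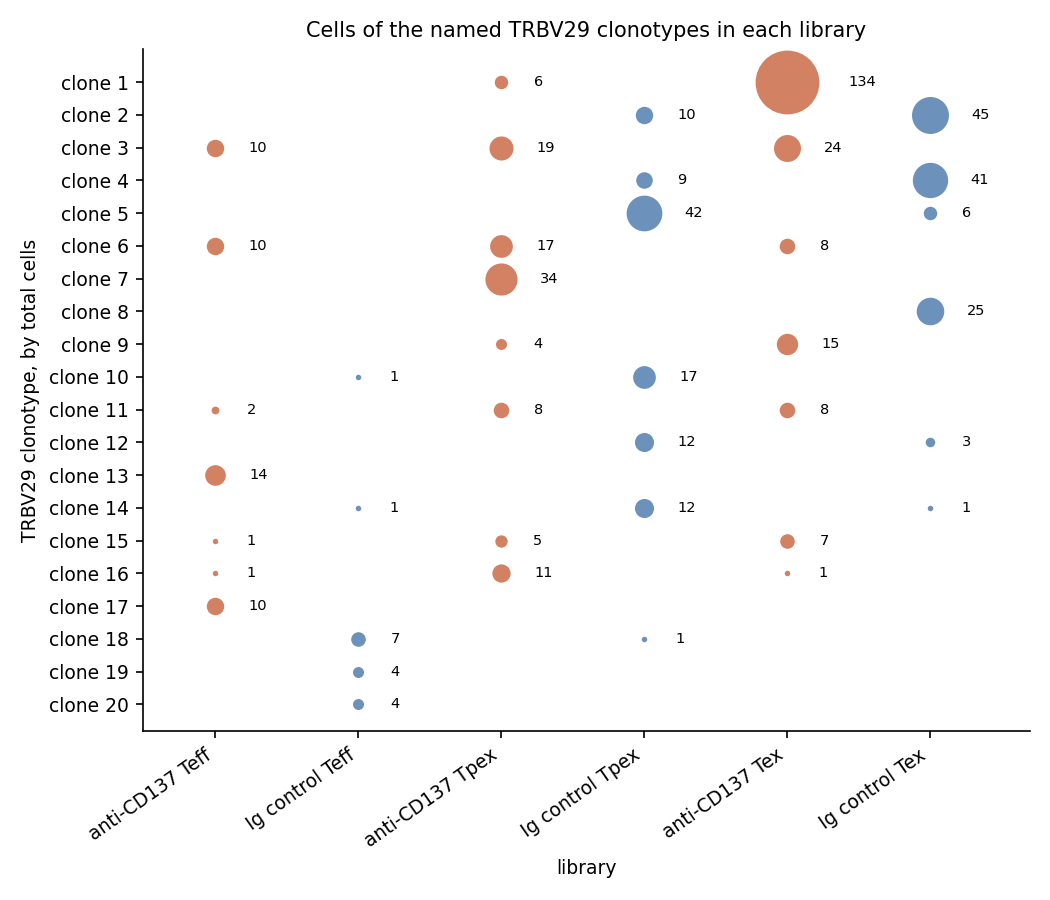
Cells of 20 TRBV29 clonotypes (rows, by total cells) in each of the 6 libraries (columns), with the area of a circle and the number beside it giving the cells. Clone 1 has 134 cells in anti-CD137 Tex, clones 3 and 6 have cells in all 3 anti-CD137 subsets, and no row has circles of both treatments.

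Clone size was compared with other TRBV segments of the same library. In anti-CD137 Tpex 75.9% of TRBV29 cells were expanded, against 68.5% of other TRBV cells, a difference of 7.47 points (3.85 to 10.9). In Ig control Tpex 52.2% were expanded, against 60.5%, a difference of -8.30 points (-12.6 to -4.04). The other TRBV cells of Ig control Tpex held very large clones, 1 of them of 1010 cells (9.45% of those cells), and without the 10 largest clonotypes the difference was -0.97 points (-5.42 to 3.50). TRBV29 ranked 10th of 19 V segments there, at their median, while in anti-CD137 Tpex it ranked 2nd of 19, with a difference of 6.28 points (2.35 to 10) without the 10 largest. In anti-CD137 Teff the shares were 10.6% and 7.91%, a difference of 2.70 points (1.09 to 4.47), and in Ig control Teff 8.72% and 10.3%. In Tex 87.0% of TRBV29 cells were expanded in both libraries, against 87.3% of other TRBV cells in anti-CD137 and 93.2% in Ig control. Without the 10 largest clonotypes the Ig control Tex difference was -1.09 points (-5.95 to 2.90). By cells TRBV29 was thus more expanded than other segments in anti-CD137 Teff and Tpex, and less expanded in Ig control Tpex and Tex. The differences in Ig control Tpex and Tex depended on which clones were left out. Their intervals included 0 without the 10 largest clonotypes of any segment. Without the largest TRBV29 clonotype they were -12.1 points in Ig control Tpex and -9.00 in Ig control Tex. In anti-CD137 Teff the difference was 1.79 points without clone 13, its largest TRBV29 clonotype. By clonotypes the interval of each such difference included 0, as in anti-CD137 Tpex, where 44.2% of TRBV29 clonotypes were expanded, against 40.3% of the others. Clonotypes had on average 2.32 cells in anti-CD137 Tpex and 1.66 in Ig control Tpex, 4.11 and 4.23 in the Tex libraries, and 1.08 and 1.05 in the Teff libraries. When each library was thinned to 5837 cells, 75.5% of TRBV29 cells were expanded in anti-CD137 Tpex, against 43.8% in Ig control Tpex, and 5.53% in anti-CD137 Teff, against 3.54% in Ig control Teff.

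Clonotypes were also followed between subsets of the same mice. In anti-CD137 Tex 46.7% of TRBV29 clonotypes were also in Tpex, against 33.4% of other TRBV clonotypes, a difference of 13.3 points (3.20 to 23.5). In Ig control Tex the shares were 48.3% and 48.5%. By cells they were 72.5% against 64.9% in anti-CD137 Tex and 67.7% against 81.6% in Ig control Tex. By clonotypes, those of TRBV29 in Tex were found in Tpex more often than other clonotypes after anti-CD137, and the difference between treatments in this was not tested. Of anti-CD137 Teff TRBV29 cells, 2.72% had their clonotype in Tpex, against 1.28% of other TRBV cells. Of TRBV29 clonotypes of anti-CD137 Teff, 15 of 1295 were also in Ig control Teff (1.16%, 0.650 to 1.90%), against 339 of 21516 other TRBV clonotypes (1.58%). Of those of anti-CD137 Tpex, 0 of 292 were in Ig control Tpex (an interval up to 1.26%), against 20 of 2803 (0.714%), and of those of anti-CD137 Tex 0 of 107 were in Ig control Tex (up to 3.39%), against 6 of 1208 (0.497%). Such sharing between treatments was rare for TRBV29 and for other segments alike.

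Most clusters of the deposited clustering held TRBV29 cells at close to the share of the rest of their library. In Tpex 83.8% of TRBV29 cells of anti-CD137 were in cluster 1, against 83.3% of other TRBV cells, and 87.8% of those of Ig control, against 87.7%. In anti-CD137 Tex 80.2% of TRBV29 cells were in cluster 4, against 77.2% of other TRBV cells, and 18.4% in cluster 3, against 21.8%. In Ig control Tex 5.91% of TRBV29 cells were in cluster 4, against 8.82%, and 90.2% in cluster 3, against 88.6%, so the 2 Tex libraries differed for all segments. Of 25 comparisons of a cluster with the rest of its library, 3 had intervals apart. The TRBV29 share was 9.13% in cluster 6 of anti-CD137 Teff (97 of 1062 cells, 7.47 to 11%), against 5.65% in the rest, and by clonotypes it was 7.70% (5.77 to 10%), an interval that includes the 5.64% of the rest. Clones 3, 6, 13 and 17 gave 9, 8, 6 and 6 of the 97 cells. In Ig control Teff it was 6.01% in cluster 0, against 4.87% in the rest, and 4.80% in cluster 2, against 5.86%. Clusters were not named here, since expression values by gene were not analysed here.

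Pairing limits what can be said of alpha chains in anti-CD137 Tpex and in the Teff libraries. Of pairs of cells with the same TRBV29 chain in anti-CD137 Tpex, 44.3% carried the same TRA, against 91.2% in Ig control Tpex, and pairs of other TRBV cells gave 41.5% and 92.2%. In Tex the TRBV29 values were 93.8% in anti-CD137 and 94.9% in Ig control. Of 20 TRBV29 chains in anti-CD137 Tpex with at least 5 cells that carried a TRA, 8 had no predominant TRA. In anti-CD137 Teff 63.9% of TRBV29 pairs carried the same TRA, against 54.6% of other TRBV pairs, and in Ig control Teff 50.8%, against 39.6%. The Teff values of TRBV29 rest on 103 and 63 cells with a recurring TRB. Of 5 such TRBV29 chains with at least 5 cells in anti-CD137 Teff, 0 had no predominant TRA. Low agreement was thus seen in anti-CD137 Tpex and both Teff libraries, for TRBV29 and other chains alike. TRB clonotypes are defined without the TRA, but whether TRB contigs were also assigned to wrong cells, which would change clone sizes in these libraries, was not tested.

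Recurrent TRBV29 CDR3s were few. Of 2884 distinct TRBV29 CDR3s after translation, 85 occurred in both treatments (2.95%, 2.36 to 3.63%), against 1495 of 45825 for other TRBV segments (3.26%). Of the 85, 77 were encoded by more than one nucleotide sequence. Their chains had a median of 7 bases between V and J matches, against 10 for CDR3s of 1 treatment, and a median length of 13 codons, against 14. The most widespread one was found in 4 libraries in 3 nucleotide versions that used TRBJ2-1. They are shown because their differences lie where V end, D and added bases meet.
version 1: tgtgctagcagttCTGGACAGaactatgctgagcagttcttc
version 2: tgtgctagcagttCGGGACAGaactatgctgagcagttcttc
version 3: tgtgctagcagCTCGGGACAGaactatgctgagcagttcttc
Version 1 was found in 1 cell of anti-CD137 Tpex and 1 of anti-CD137 Tex, version 2 in 1 cell of anti-CD137 Teff and version 3 in 1 cell of Ig control Teff. The recurrent CDR3s were thus shorter and had fewer bases between the germline matches.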

How the data were processed

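Sequencing of the 6 libraries gave 12 samples, a gene expression and a receptor sample for each. The authors' deposited contig tables give, per the file headers, each TCR contig's V and J segment, CDR3 nucleotides, and read and UMI counts. The authors' deposited cell table gives total RNA UMI counts, the cluster number and the percent of mitochondrial counts, per the file headers. Cell Ranger 3.0.2 and Seurat 4.0.0 and the build mm10 are named in the submitters' processing notes. How doublets were treated is not stated in the labels or file headers, and no doublet caller was run. All columns used belong to these samples (0 columns of other samples).

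Each cell of the table was matched to contigs with its barcode in the receptor sample of the same library, and the TRB contig with the most UMIs was taken for each cell. Segments at 1% or more of cells in either library were compared, clusters of at least 100 cells, and partners at 2% or more. Partners were named when exact Clopper-Pearson 95% intervals of TRBV29 and other clonotypes did not overlap, and clonotypes when they were among the 3 largest of a library or in all 3 subsets of a treatment. Intervals of differences were Newcombe's, and those of mean lengths used the normal approximation. V and J matches in CDR3 were the longest exact prefix and suffix shared with the germline segment of GENCODE M21 on GRCm38. Scripts used Python 3.11.15, numpy 2.4.6, pandas 2.3.3, scipy 1.17.1 and matplotlib 3.10.9 and were tested on simulated data. The members and lists were chosen with earlier results of these data known. Alternatives changed the chain choice, the UMI minimum, the counting unit and the filters on cells and clones.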

Additional observations from a re-analysis of the deposited data

Results flagged for a closer look

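The expanded share of TRBV29 cells minus that of other TRBV cells had opposite signs in the treatments, at 7.47 percentage points in anti-CD137 Tpex and -8.30 in Ig control Tpex. In Teff it was 2.70 points in anti-CD137 and -1.54 in Ig control. These differences between treatments were not tested, as there was 1 library in each. In Ig control Tpex the value was -0.97 without the 10 largest clonotypes and -12.1 without the largest TRBV29 clonotype, and TRBV29 was at the median of 19 segments there.

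The mean CDR3 length of TRBV29 clonotypes minus that of other TRBV clonotypes was 0.163 codons in anti-CD137 Tpex and -0.491 codons in Ig control Tpex. This difference was not tested.

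TRBV29 was the top TRB chain in 10.8% of the anti-CD137 Tpex barcodes that lay outside the cell table, against 4.79% of those of Ig control Tpex. These barcodes were outside the cells chosen by the rule and entered the comparison of shares as an alternative. They come from the same libraries as those cells and can carry the same clonotypes.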

How the results depend on the processing

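Of 140 alternatives over 23 results, 122 gave a value within the interval of the reported one (for counts, within 1.5 times), 16 a value outside it and 2 a higher count. The sign changed in 5, each for a reported difference whose interval included 0: the expanded share in Ig control Teff (0.041 by paired CDR3s) and anti-CD137 Tex (0.633 in paired cells, 0.320 with 1 TRB contig, 2.18 by paired CDR3s), and long CDR3s in Teff (-0.616 at 15 or more codons). Within wide intervals, values still moved by over 1.5 times, as for long CDR3s in Tex (5.08 points, against 0.935 at 17 or more codons) and the length difference in anti-CD137 Tpex (0.163 codons, against 0.345 by cells). The difference of the TRBV29 share (anti-CD137 minus Ig control, percentage points) in Tpex cells was 7.87 with any TRBV29 contig, 4.73 without the 10 largest clonotypes of each library and 3.93 without chains of 16 or more codons. In Tpex clonotypes it was 2.07 without those long chains. In Tex cells it was 2.92 without the largest TRBV29 clonotype and 1.67 without the 10 largest clonotypes. In Teff it was 2.21 among clonotypes of at least 2 cells. With expansion set at 5 cells, the TRBV29 minus other TRBV difference was 16.2 points in anti-CD137 Tpex, -13.6 in Ig control Tpex and -15.9 in Ig control Tex. In anti-CD137 Tex it was -5.97 without the largest clonotype. Without the 10 largest it was -0.97 in Ig control Tpex and -1.09 in Ig control Tex. The Tpex difference in long CDR3s, 17.1 points by clonotypes, was 25.4 by cells and 3.82 at 17 or more codons. Counting cells in place of clonotypes raised the partners with intervals apart to 32 for TRBJ, against 7, and to 78 for TRAV and TRAJ, against 16. It moved the length difference in anti-CD137 Tex to -1.20 codons. The cause of these moves was not tested beyond what each setting leaves out. The 122 unmoved values include shares of cells after thinning to the smallest library, which equal the reported ones by construction and so show nothing. The alternatives without long chains, without shared barcodes, on long CDR3s and on expansion without the 10 largest clonotypes, and the length thresholds, were chosen after seeing the data. No paired analysis was possible because each treatment and subset had 1 library, and for the same reason no replicate could be left out. Few clonotypes in the Tex libraries, and few TRB UMIs per cell in anti-CD137 Tpex, limit the precision.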
